A study of Mus musculus with 2 samples.

Results

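The genes of the mitochondrial respiratory chain and ATP synthase were followed in single cells of the mouse heart after myocardial infarction (MI) and after sham surgery. Members were all genes in both count tables whose symbol starts with Ndufa, Ndufb, Ndufc, Ndufs, Ndufv, Uqcr, Cox4i, Cox5, Cox6, Cox7, Cox8, Atp5, mt-Nd, mt-Co, mt-Atp or mt-Cyt, without names holding -ps. These were 99 of 21745 shared genes. The nucleus encodes 86 of them, which are 38 named as complex I subunits, 7 complex I assembly factors (Ndufaf), 8 of complex III, 16 of complex IV, 15 of the ATP synthase, and Atp5s and Atp5sl, which are not subunits. The other 13 lie on mitochondrial DNA: 7 of complex I, 1 of complex III, 3 of complex IV and 2 of the ATP synthase. The rule used symbols only and no measured value.

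The respiratory chain passes electrons from NADH through complexes I, III and IV to oxygen and pumps protons across the inner mitochondrial membrane. ATP synthase uses that proton gradient to make ATP. Complexes I, III and IV and ATP synthase are built from subunits of both genomes, and complex II from nuclear ones alone: the nuclear mRNAs are transcribed gene by gene and translated in the cytosol, whereas the mt- genes are transcribed as long polycistronic RNAs from each strand, cut at the tRNAs between the genes, and translated in the organelle. Heart muscle depends heavily on this system. The cells measured here were mostly the other cells of the heart, which have fewer mitochondria than cardiomyocytes.

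Hearts came from male wild-type C57BL6/J mice of 8 to 10 weeks at surgery. In the MI group the left anterior descending coronary artery was tied, and in the sham group the suture was left loose. Both were sampled 14 days later by Drop-seq, in which droplet barcodes tell cells apart and unique molecular identifiers (UMIs) count mRNA molecules. The MI library was 1 heart and the sham library 4 pooled hearts, so no difference has a replicate check, no test was run, and every 95% interval covers counting error only.

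The libraries differed in depth, with 33275336 UMIs over 8555 barcodes in MI (median 2466 per barcode) and 11307405 over 6337 in sham (median 1424), and 5 barcodes occurred in both. After removal of called doublets and of cells with over 25% of UMIs from mt- genes, 8299 MI and 5962 sham cells were kept. A gate on listed marker genes placed 91.5% and 94.8% of them in a class, named with "-like" because it rests on markers alone. Every listed marker present in both count tables had a UMI in its class, for each class described. The gate uses these same markers, so this is no check of it. The classes compared had at least 50 cells in each library: fibroblast-like (2912 MI and 1791 sham cells, median 5223.5 and 1495 UMIs), macrophage/monocyte-like (3840 and 1429 cells, 1702 and 1363 UMIs), endothelial-like (392 and 2132 cells, 3157 and 1309.5 UMIs) and mesothelial-like (131 and 86 cells, 5243 and 1979 UMIs). Fewer cells were gated as mural-like (pericytes and smooth muscle; 41 and 77), T/NK-like (118 and 31) and B cell-like (99 and 30), for which levels and summed ratios are given. Levels alone are given for lymphatic endothelial-like cells in sham (57) and neutrophil-like cells in MI (26). No cardiomyocyte class was gated. The heart label thus covers these cell types and not heart muscle, and cardiomyocyte transcripts appeared as traces in other cells.

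Promoter sequence was looked at first, because the nuclear genes of this system are known targets of the factors NRF1 and GABP. RefSeq promoters (GRCm38.p6, 250 bases before to 50 after the start, 300 bases in all) matched 69 of the 86 nuclear members by symbol. The NRF1 core GCGCANGCG, searched on both strands, was in 20 of the 69 (29.0%), compared with 6.35% of all 27025 promoters and 13.6% of the 9620 promoters of genes with enough UMIs in fibroblast-like cells. The ETS and GABP motif CCGGAAG was in 15 (21.7%), compared with 9.08% and 18.1%. The core of the hypoxia element, ACGTG, was in 16 (23.2%), compared with 19.5% and 25.5%. The 4 promoters printed here, all on the minus strand and read 5′ to 3′ toward the gene, were chosen because they span these patterns among genes whose ratios are given below. Capitals mark NRF1 and ETS matches in either orientation, with overlapping matches taken as 1. Cox6a1 (chr5:115348909-115349208), the widely used subunit 6a of complex IV, has 2 separate NRF1 matches and 1 ETS match. Ndufb4 (chr16:37654319-37654618), an accessory subunit of complex I, has 3 NRF1 matches. Cox6b1 (chr7:30626065-30626364), the common subunit 6b of complex IV, has 1 ETS match, and its testis-enriched isoform Cox6b2 (chr7:4753045-4753344) has none.
Cox6a1: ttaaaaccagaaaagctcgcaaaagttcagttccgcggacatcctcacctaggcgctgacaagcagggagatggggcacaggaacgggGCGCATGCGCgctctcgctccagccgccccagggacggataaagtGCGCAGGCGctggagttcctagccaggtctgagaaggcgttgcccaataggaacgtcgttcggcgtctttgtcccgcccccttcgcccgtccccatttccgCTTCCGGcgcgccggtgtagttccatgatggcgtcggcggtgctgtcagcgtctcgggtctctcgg
Ndufb4: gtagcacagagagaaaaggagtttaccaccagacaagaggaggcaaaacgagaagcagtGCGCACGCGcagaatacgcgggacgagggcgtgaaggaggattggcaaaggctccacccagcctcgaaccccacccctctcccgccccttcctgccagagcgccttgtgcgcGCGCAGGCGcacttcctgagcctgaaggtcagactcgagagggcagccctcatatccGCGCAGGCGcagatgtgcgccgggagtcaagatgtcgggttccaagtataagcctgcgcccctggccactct
Cox6b1: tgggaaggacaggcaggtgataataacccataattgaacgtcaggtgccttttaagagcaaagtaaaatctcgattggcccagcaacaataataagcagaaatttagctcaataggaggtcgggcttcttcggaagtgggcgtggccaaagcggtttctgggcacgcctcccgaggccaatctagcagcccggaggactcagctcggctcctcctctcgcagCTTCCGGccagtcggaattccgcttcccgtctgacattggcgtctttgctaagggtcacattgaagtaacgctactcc
Cox6b2: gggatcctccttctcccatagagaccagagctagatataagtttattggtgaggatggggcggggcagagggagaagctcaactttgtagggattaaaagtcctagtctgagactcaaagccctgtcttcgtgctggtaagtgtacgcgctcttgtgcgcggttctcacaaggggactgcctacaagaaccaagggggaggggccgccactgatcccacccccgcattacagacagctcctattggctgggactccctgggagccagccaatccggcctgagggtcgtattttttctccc
A match describes letters in this window and does not show that a factor binds there. In fibroblast-like cells Cox6a1 was 0.84 higher in MI on the log2 scale (0.75 to 0.94) and Ndufb4 differed by -0.08 (-0.25 to 0.10). Cox6b1 differed by 0.97 (0.87 to 1.08) and Cox6b2 by 2.48 (1.59 to 3.56). Whether motif and ratio go together was not tested, and 4 chosen genes cannot show it.

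The nuclear and the mitochondrial transcripts of the chain stood in opposite directions. The 86 nuclear members together made up a larger share of mRNA in MI than in sham in each of the 7 classes found in both libraries, and the 13 mt- members a smaller one. In fibroblast-like cells the nuclear members summed to 18508 CPM (UMIs of a gene per 1000000 UMIs of its class) in MI and 12827 in sham, a log2 ratio of 0.53 (0.51 to 0.54). Macrophage/monocyte-like cells had 17813 and 13357 CPM (0.42, 0.40 to 0.43), endothelial-like cells 19394 and 14005 (0.47, 0.45 to 0.49) and mesothelial-like cells 18855 and 15061 (0.32, 0.27 to 0.38). The ratios of mural-like, T/NK-like and B cell-like classes were smaller, at 0.26, 0.28 and 0.27.

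The mt- members summed to 10054 CPM in MI and 17126 in sham in fibroblast-like cells, a log2 ratio of -0.77 (-0.78 to -0.75). The ratio was -0.89 (-0.91 to -0.87) in macrophage/monocyte-like cells, with 10163 and 18858 CPM, and -0.64 (-0.66 to -0.61) in endothelial-like cells, with 13155 and 20438 CPM. Mesothelial-like cells had 10869 and 18310 CPM (-0.75, -0.81 to -0.70). Mural-like cells showed the widest gap, 11581 against 23871 CPM (-1.04, -1.13 to -0.96), and T/NK-like cells the narrowest, 14594 against 18901 CPM (-0.37, -0.49 to -0.26). The mural-like cells also differed in median depth, 4378 UMIs in MI and 1047 in sham, and the part of depth in their gap was not tested.

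**Figure D1:**
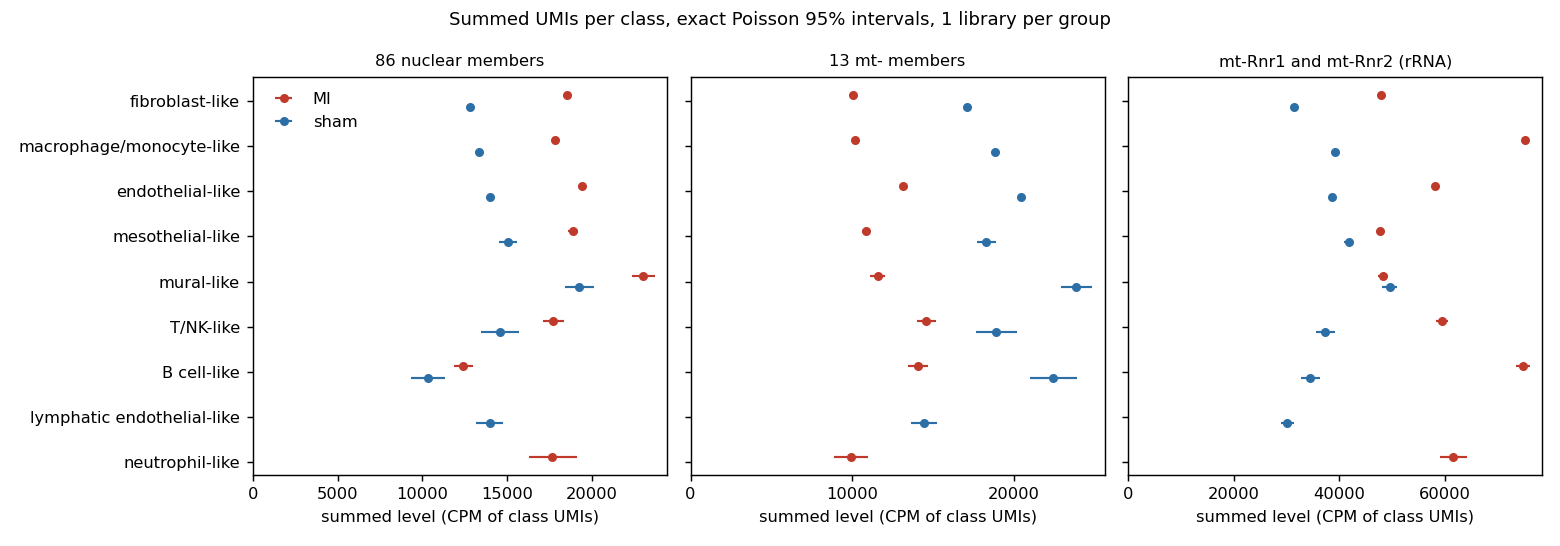
Summed levels in CPM of the 86 nuclear members, the 13 mt- members and the mitochondrial rRNAs in each class (points with exact Poisson 95% intervals, red MI, blue sham, 1 library each; a missing point has under 25 cells). The red nuclear point lies to the right of the blue one in all 7 classes with both libraries, the red mt- point to the left in all 7, and the rRNA point to the right in 6 of the 7.

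The summed ribosomal RNAs of the same organelle went the other way from its mRNAs in the 4 compared classes, although mt-Rnr1 alone lay under 0 in mesothelial-like cells. The 2 genes mt-Rnr1 and mt-Rnr2, which encode the small and large mitochondrial rRNA and are not members, had a summed log2 ratio of 0.61 (0.60 to 0.62) in fibroblast-like, 0.94 (0.93 to 0.95) in macrophage/monocyte-like, 0.59 (0.58 to 0.61) in endothelial-like and 0.19 (0.16 to 0.23) in mesothelial-like cells. Mural-like cells had a ratio of -0.04 (-0.09 to 0.01). The 22 mt- tRNA genes had ratios of -2.20, -1.91, -2.25 and -2.25 in the 4 compared classes. Cytosolic ribosomal protein mRNAs, another large set of short nuclear transcripts, were also higher in MI, by 0.21, 0.24, 0.23 and 0.42 in those classes. With mt- and ribosomal protein genes left out of the class totals, the fibroblast-like ratios were 0.57 for the nuclear and -0.73 for the mt- members, close to those with them.

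Of the 4 compared classes, fibroblast-like cells differed most in median depth, and there the gap was narrow in 1 depth range. From 500 to under 1000 UMIs (70 MI and 311 sham cells) the nuclear sum was 16731 CPM in MI and 12504 in sham, and the mt- sum 11115 and 19355. Among cells of 1000 to under 2000 UMIs (270 MI and 1029 sham) the nuclear sum was 15372 CPM in MI and 12867 in sham, and the mt- sum 14699 and 17808. Over cells of 1000 to 2000 UMIs the log2 ratios were 0.26 for the nuclear and -0.28 for the mt- members, against 0.53 and -0.77 over all cells. From 2000 to under 4000 UMIs the values were 17283 against 12749 CPM for the nuclear and 11085 against 16019 CPM for the mt- members, and from 4000 to under 8000 UMIs 18364 against 13384 and 10195 against 14907. The order of the libraries was thus the same in each depth range with cells of both. In macrophage/monocyte-like cells, whose depths were close, the sums changed little with depth: 17250 against 13076 CPM (nuclear) and 10233 against 19403 CPM (mt-) at 1000 to under 2000 UMIs. In sham endothelial-like cells the mt- sum went from 27737 CPM at 500 to under 1000 UMIs to 14379 CPM at 8000 UMIs and above, where MI cells had 11681 CPM.

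**Figure D2:**
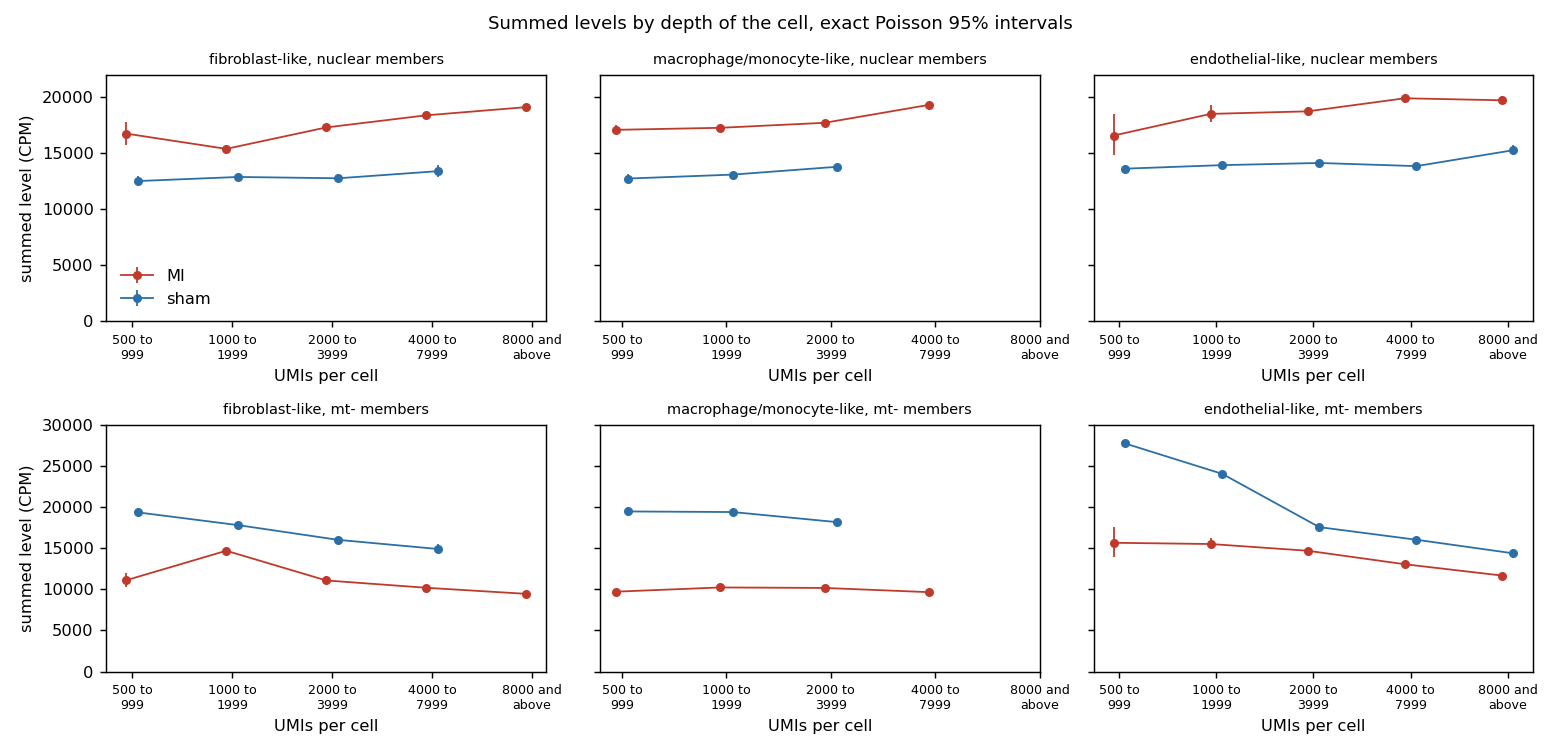
Summed CPM of the nuclear (top) and mt- members (bottom) by UMIs per cell in the 3 largest classes, with exact Poisson 95% intervals and 1 library per colour (red MI, blue sham). The MI line lies above the sham line for the nuclear and under it for the mt- members at every depth with both, and the fibroblast-like lines come closest at 1000 to under 2000 UMIs.

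Single cells overlapped between the libraries, although their middle ranges were apart in fibroblast-like cells. The nuclear members took a median of 1.80% of a cell's UMIs in MI (quartiles 1.54 and 2.07) and 1.27% in sham (1.02 and 1.52). The mt- members took 0.988% (0.801 and 1.2) and 1.59% (1.26 and 2.03). Cells of 1 library are not replicates, so these quartiles describe the spread within each library.

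Across classes, the nuclear sum was highest in mural-like cells in both libraries, at 23012 CPM in MI (22363 to 23676) and 19220 in sham (18385 to 20083), and lowest in B cell-like cells, at 12392 (11844 to 12958) and 10304 (9356 to 11321). In MI, endothelial-like cells came next, then mesothelial-like, fibroblast-like, macrophage/monocyte-like, T/NK-like and neutrophil-like cells. The intervals of macrophage/monocyte-like and T/NK-like cells overlapped, those of fibroblast-like and mesothelial-like cells overlapped slightly, and that of the 26 neutrophil-like cells (16277 to 19093) reached all 4. In sham, mesothelial-like (15061 CPM), T/NK-like (14555), endothelial-like (14005) and lymphatic endothelial-like cells (13960) followed, and the T/NK-like interval (13460 to 15715) overlapped each of the others. Macrophage/monocyte-like (13357) and fibroblast-like cells (12827) came next. The mt- sum was also highest in mural-like cells in sham (23871 CPM, with B cell-like cells at 22416 and overlapping intervals), but not in MI. In MI it was highest in T/NK-like cells (14594) and next in B cells by the gate (14067), whose intervals overlapped. In both libraries B cell-like cells thus stood high for the mt- and low for the nuclear members.

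The nuclear subunits of the 4 complexes had similar ratios. Groups follow gene symbols, so complex I here holds Ndufa4, a protein now placed in complex IV, and its relative Ndufa4l2. In fibroblast-like cells Ndufa4 alone had a ratio of 1.11 and Ndufa4l2 of -1.66. In fibroblast-like cells the summed log2 ratio was 0.48 (0.45 to 0.50) for complex I, 0.55 (0.50 to 0.60) for complex III, 0.60 (0.57 to 0.63) for complex IV and 0.55 (0.52 to 0.58) for ATP synthase. In endothelial-like cells the 4 values lay between 0.46 (complex IV) and 0.49 (ATP synthase), in macrophage/monocyte-like cells between 0.38 (complex I and complex III) and 0.47 (complex IV), and in mesothelial-like cells between 0.25 (complex I) and 0.41 (complex IV). The 7 complex I assembly factors, which help build the complex and leave it when it is complete, did not share this in 3 of the 4 classes: their sum differed by -0.19 (-0.30 to -0.08) in fibroblast-like, -0.16 (-0.33 to 0.00) in macrophage/monocyte-like and -0.04 (-0.22 to 0.14) in endothelial-like cells. In mesothelial-like cells their sum was on the side of the subunits, at 0.33, with an interval that held 0 (-0.23 to 0.92). With scaling by the median ratio over genes in place of the class total, the fibroblast-like and endothelial-like values of the assembly factors lay above 0.

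The median ratio that this scaling sets to 0 was -0.24 in fibroblast-like, -0.12 in macrophage/monocyte-like, -0.06 in endothelial-like and 0.01 in mesothelial-like cells, so it shifts all ratios toward MI in the first 3 of these. Under the class totals the median log2 ratio of the nuclear members with at least 20 UMIs was 0.50 in fibroblast-like cells (85 members, 67 above 0), where the median of all genes was -0.22. It was 0.33 in macrophage/monocyte-like cells (83 members, 69 above 0; all genes -0.12), 0.50 in endothelial-like cells (82 members, 72 above 0; all genes -0.07) and 0.29 in mesothelial-like cells (75 members, 53 above 0; all genes 0.02). Of the 74 nuclear members with enough UMIs in all 4 classes, 46 were above 0 in each and 1, Ndufb4, was below 0 in each. The counting interval of Ndufb4 held 0 in all 4, as in endothelial-like (-0.34 to 0.18) and mesothelial-like cells (-1.05 to 0.08). Ndufb4 lay above 0 in fibroblast-like cells under the median ratio scaling, and in endothelial-like cells of 1000 to 2000 UMIs at 0.18.

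These were modest shifts of many genes, and few members differed 2-fold. In fibroblast-like cells 5 nuclear members were at least 2-fold higher in MI, where 13.2% of all genes were, and 3 at least 2-fold lower, where 20.5% of all genes were. With the median ratio scaling, 17 of the 85 members were at least 2-fold higher, and the split over all 13652 genes went from 1799 higher and 2801 lower to 2312 and 2058, so that the members' share of genes at least 2-fold higher was then above that of all genes. In macrophage/monocyte-like cells 2 were higher (9.04% of all genes) and 2 lower (12.2%), and the first count was 6 of 83 under the median ratio scaling, beside 1257 of all 11712 genes. In endothelial-like cells 3 were higher (11.0%) and 2 lower (14.9%), and in mesothelial-like cells 6 were higher (16.0%) and 2 lower (13.6%). Under the class totals, the members' shares of 2-fold differences were below those of all genes in both directions in all 4 classes.

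**Figure D3:**
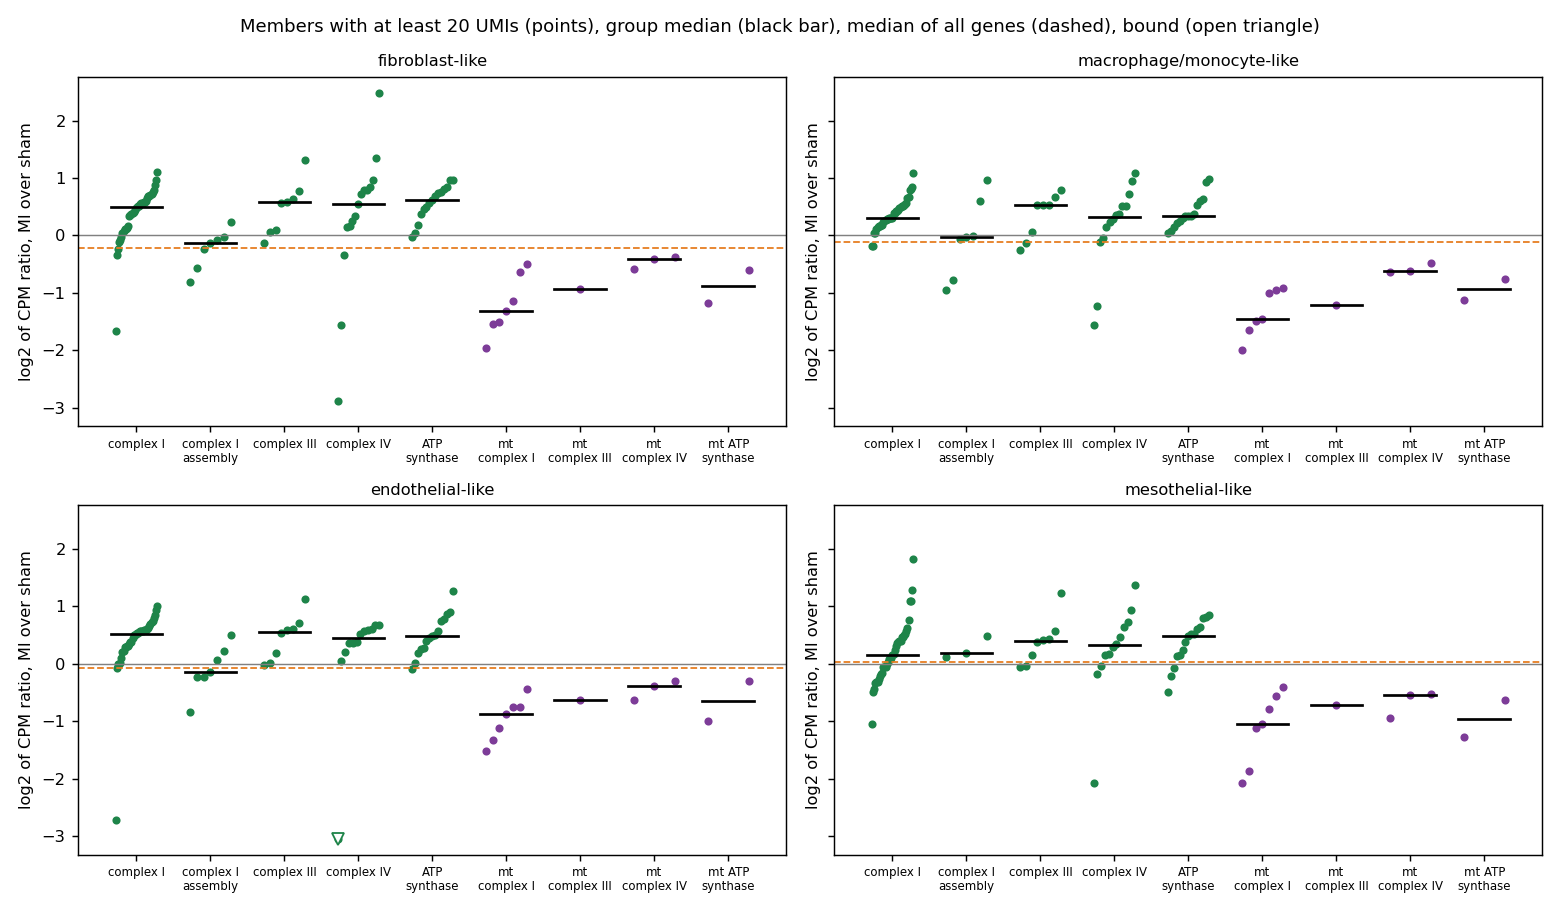
Log2 CPM ratio of MI over sham for each member with at least 20 UMIs in a class, by complex (green nuclear, purple mt-; bars are medians of a group, the dashed line is the median of all genes, and the open triangle is a bound for a gene with 0 UMIs in MI). Nuclear subunits of the 4 complexes centre above 0, assembly factors have medians from -0.14 to 0.19, and every mt- member lies under 0.

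Among complex I subunits, Ndufc2 in the membrane arm had 262 CPM in MI and 124 in sham in macrophage/monocyte-like cells (1.08, 0.90 to 1.27) and 285 and 133 CPM in mesothelial-like cells (1.10, 0.53 to 1.72). Ndufa11, also of the membrane arm, had 158 and 78.3 CPM in endothelial-like cells (1.01, 0.77 to 1.25). In mesothelial-like cells its 150 and 61.9 CPM gave 1.28 (0.45 to 2.23). Both genes were thus higher in the MI library in more than 1 class. Ndufv3, a small subunit of the NADH-oxidizing module, was 0.80 higher in macrophage/monocyte-like (218 and 125 CPM) and 0.93 in endothelial-like cells (200 and 105 CPM). Ndufs5 differed most in mesothelial-like cells, with 136 and 38.1 CPM from 110 and 8 UMIs (1.83, 0.80 to 3.08), while its ratio was 0.17 in fibroblast-like and 0.02 in endothelial-like cells.

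Other complex I genes stood at or under 0. Ndufs1, the largest core subunit and a carrier of iron-sulfur clusters, had 26.1 and 33.1 CPM in fibroblast-like cells (-0.34, -0.65 to -0.01), and Ndufa5 158 and 186 CPM (-0.23, -0.36 to -0.10), which came to 0.00 with the median ratio scaling. Ndufa1 had 200 CPM in MI and 414 in sham in mesothelial-like cells (-1.05, -1.44 to -0.66), the only complex I subunit at least 2-fold lower there, and was 0.57 higher in fibroblast-like cells. In mesothelial-like cells Ndufb4 (128 and 181 CPM; -0.50, -1.05 to 0.08) and Ndufb11 (155 and 210 CPM; -0.43, -0.94 to 0.10) had intervals that held 0. Of the assembly factors, Ndufaf4 had 35.6 and 62.9 CPM in fibroblast-like cells (-0.82, -1.05 to -0.58). Ndufaf7, a methyltransferase, had 36.1 and 53.6 CPM there (-0.57) and 29.9 and 51.4 CPM in macrophage/monocyte-like cells (-0.78, -1.11 to -0.44). In fibroblast-like cells of 1000 to 2000 UMIs Ndufaf4 and Ndufaf7 stood at -2.60 and -1.31. In endothelial-like cells the Ndufaf7 ratio was 0.51 (0.08 to 0.93). Ndufaf5 differed by -0.95 (-1.72 to -0.14) in macrophage/monocyte-like cells, from 41 and 23 UMIs. Ndufaf2 differed by -0.14 (-0.44 to 0.15) in endothelial-like cells.

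In complex III, which moves electrons from ubiquinol to cytochrome c, Uqcrq differed most in fibroblast-like and endothelial-like cells. It had 369 CPM in MI and 149 in sham in fibroblast-like cells (1.31, 1.17 to 1.45), 312 and 143 in endothelial-like cells (1.13, 0.95 to 1.30), 309 and 195 in macrophage/monocyte-like cells (0.66) and 339 and 229 in mesothelial-like cells (0.57). Uqcrb, another small subunit, stayed near 0 in all 4 classes, with ratios of 0.05, -0.14, 0.02 and -0.05 in fibroblast-like, macrophage/monocyte-like, endothelial-like and mesothelial-like cells. Uqcrfs1, the iron-sulfur subunit, was 1.24 higher in mesothelial-like cells, where the complex I gene Ndufb3 was 1.10 higher.

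In complex IV, the oxygen-consuming enzyme, Cox5a had 209 CPM in MI and 82.4 in sham in fibroblast-like cells (1.35, 1.16 to 1.54), 289 and 149 in macrophage/monocyte-like cells (0.95, 0.79 to 1.12) and 233 and 90.5 in mesothelial-like cells (1.36, 0.68 to 2.13). Cox4i1, the common subunit 4, had the highest ratio of any nuclear member in macrophage/monocyte-like cells, with 1196 and 562 CPM (1.09, 1.00 to 1.18), and had 939 and 567 CPM in mesothelial-like cells (0.73). Cox6b1 had 545 and 278 CPM in fibroblast-like cells (0.97, 0.87 to 1.08). Cox7c had 820 and 429 CPM in mesothelial-like cells (0.94, 0.62 to 1.27). Cox7b lay slightly under 0 in macrophage/monocyte-like cells (-0.11, -0.21 to -0.01) and slightly above with the median ratio scaling. In fibroblast-like cells Cox7a2, Cox7b and Cox8a had ratios of 0.34, 0.25 and 0.14 over all cells and of -0.14, -0.05 and -0.17 in cells of 1000 to 2000 UMIs. That subset held 270 MI and 1030 sham cells, and no interval was computed for it. Whether these sign changes exceed counting error is thus not known. Cox7a2l, which helps join complexes III and IV into supercomplexes, had a ratio of 0.72 in macrophage/monocyte-like cells and -0.18 (-0.60 to 0.26) in mesothelial-like cells.

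In ATP synthase, Atp5e of the central stalk had 608 CPM in MI and 313 in sham in fibroblast-like cells (0.96, 0.86 to 1.06), 643 and 337 in macrophage/monocyte-like cells (0.93, 0.82 to 1.04) and 577 and 240 in endothelial-like cells (1.26, 1.13 to 1.39). Atp5g3, 1 of 3 genes for the subunit of the rotating c ring, had ratios of 0.98 in macrophage/monocyte-like and 0.91 in endothelial-like cells. Atp5f1 of the peripheral stalk had 448 and 247 CPM in endothelial-like cells (0.86, 0.72 to 1.00). Atp5h, of the same stalk, differed little in fibroblast-like cells (-0.03, -0.13 to 0.08) and by -0.50 (-0.88 to -0.10) in mesothelial-like cells. Atp5j in endothelial-like cells (-0.09, -0.22 to 0.03) and Atp5k in mesothelial-like cells (-0.22, -0.65 to 0.23) had intervals that held 0. Atp5sl, no subunit, was 1.45 higher in fibroblast-like cells, from 145 and 9 UMIs. Many of these short nuclear genes have processed pseudogenes, and how reads from such copies were counted is not stated in the labels or files.

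Every one of the 13 mt- members was below 0 in each of the 4 compared classes, and the size of the difference varied between genes. Of the 13, 6 were at least 2-fold lower in fibroblast-like cells, 6 in macrophage/monocyte-like, 4 in endothelial-like and 5 in mesothelial-like cells, beside the 20.5%, 12.2%, 14.9% and 13.6% of all genes. mt-Nd2, a membrane subunit of complex I at positions 3914 to 4951 of the mitochondrial chromosome (GRCm38, plus strand), differed most in 3 of the 4. It had 410 CPM in MI and 1594 in sham in fibroblast-like cells (-1.96, -2.01 to -1.91). The values were 430 and 1723 CPM in macrophage/monocyte-like (-2.00), 715 and 2051 in endothelial-like (-1.52) and 462 and 1691 in mesothelial-like cells (-1.87). mt-Nd1, the gene before it on the same strand (2751 to 3707), differed less, with 1360 and 1928 CPM in fibroblast-like cells (-0.50, -0.55 to -0.46).

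The other complex I genes lay between these 2 in fibroblast-like, macrophage/monocyte-like and endothelial-like cells, and mt-Nd6 lay beyond mt-Nd2 in mesothelial-like cells. mt-Nd4 (10167 to 11544) had 552 and 1373 CPM in fibroblast-like cells (-1.32, -1.37 to -1.26) and ratios of -1.46, -0.88 and -1.12 in macrophage/monocyte-like, endothelial-like and mesothelial-like cells. mt-Nd4l (9877 to 10173), which overlaps mt-Nd4 and shares its mRNA, had ratios of -1.51, -1.49, -1.12 and -1.04 in the 4 classes. mt-Nd5 (11742 to 13565) had -1.14, -0.95, -0.75 and -0.78 (-0.52 in fibroblast-like cells of 1000 to 2000 UMIs), and mt-Nd3 (9459 to 9806) -0.64, -1.0, -0.76 and -0.56. mt-Nd6 (13552 to 14070) is the single member on the minus strand and overlaps the end of mt-Nd5. It had -1.54, -1.64, -1.32 and -2.07. Whether the counting used strand is not stated in the labels or files, so reads from the overlap and from antisense RNA cannot be assigned with certainty.

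The 3 complex IV genes ranged from -0.30 to -0.95. mt-Co1 (5328 to 6872), the catalytic subunit, had 2266 and 3398 CPM in fibroblast-like cells (-0.58, -0.62 to -0.55) and ratios of -0.64, -0.63 and -0.52 in macrophage/monocyte-like, endothelial-like and mesothelial-like cells. mt-Co2 (7013 to 7696), which takes electrons from cytochrome c, had -0.38, -0.61, -0.39 and -0.95 in the 4 classes. mt-Co3 (8607 to 9390) had -0.41, -0.48, -0.30 and -0.55. Among fibroblast-like cells of 1000 to 2000 UMIs, mt-Co2 and mt-Co3 were slightly higher in MI, at 0.10 and 0.16, so the shared direction of the 13 genes did not extend to that subset. mt-Cytb (14145 to 15288), the complex III gene, had -0.93, -1.21, -0.63 and -0.71. Of the ATP synthase genes, mt-Atp6 (7927 to 8607) had -0.60, -0.75, -0.29 and -0.63, and mt-Atp8 (7766 to 7969), which overlaps it and shares its mRNA, -1.17, -1.13, -1.0 and -1.28 (-1.86 in endothelial-like cells of 1000 to 2000 UMIs). The 2 genes of each shared mRNA thus had unequal ratios where mt-Atp8 and mt-Atp6 were concerned, and closer ones for mt-Nd4l and mt-Nd4.

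By complex, the summed mt- ratio in fibroblast-like cells was -1.08 (-1.10 to -1.06) for complex I and -0.49 (-0.52 to -0.47) for complex IV. The values were -1.25 and -0.59 in macrophage/monocyte-like, -0.84 and -0.49 in endothelial-like and -0.95 and -0.61 in mesothelial-like cells. The complex I genes thus stood further from 0 than the complex IV genes in each of the 4. In T/NK-like cells the values were -0.33 (-0.51 to -0.15) and -0.34 (-0.52 to -0.15), with no such gap. mt-Rnr2 (1094 to 2675), just before mt-Nd1 and on the same strand, had ratios of 0.62, 0.95, 0.60 and 0.20 in the 4 compared classes, and mt-Rnr1 (70 to 1024) of 0.14, 0.59, 0.32 and -0.22.

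**Figure D4:**
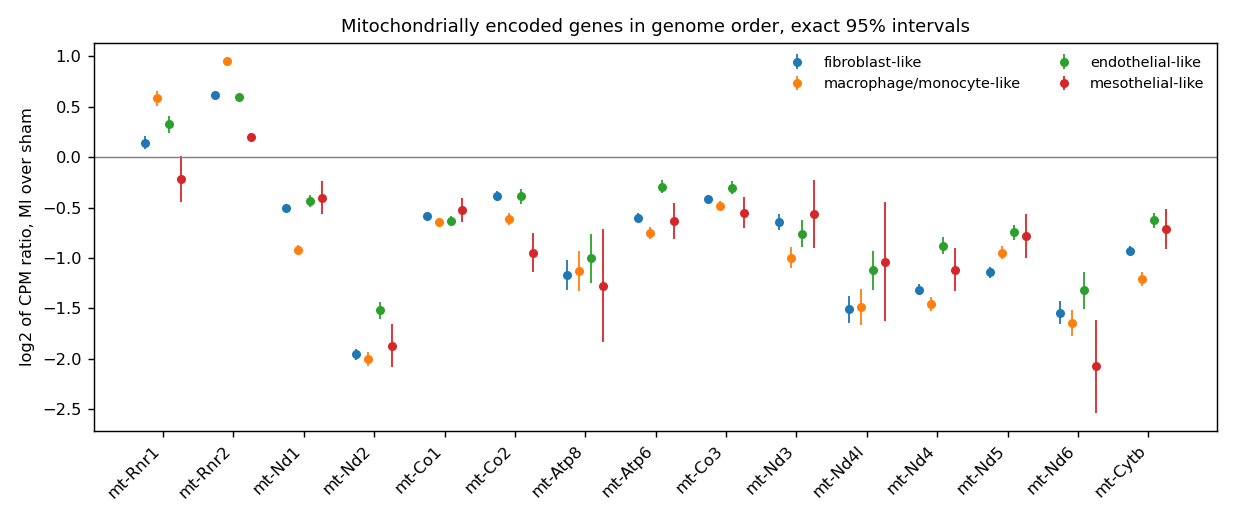
Log2 CPM ratio of MI over sham with exact 95% intervals for the 2 mitochondrial rRNA genes and the 13 mt- members in the order of the mitochondrial genome, 4 classes in colours. The rRNA points lie above 0 except mt-Rnr1 in mesothelial-like cells, all member points lie under 0, and mt-Nd2 stands at -1.52 to -2.00 beside mt-Nd1 at -0.40 to -0.92.

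Several nuclear subunits have isoforms of restricted expression, and these varied most between classes. Ndufa4l2 and Cox4i2 led the 84 ranked nuclear members in the ratio of the highest to the lowest class in both libraries, with 0 UMIs set to 3. That ratio was 170 in MI and 171 in sham for Ndufa4l2, and 79.1 and 167 for Cox4i2, where the median member had 2.56 and 3.26. Under this floor the lowest class was macrophage/monocyte-like, with 5 or 7 UMIs. Other classes held 0 UMIs, such as sham mesothelial-like cells for both genes, and the ratios do not describe those. Ndufa4l2 is a hypoxia-inducible relative of Ndufa4, a protein named for complex I and now placed in complex IV. Cox4i2 is the alternative subunit 4 known from lung and from oxygen-sensing cells. Both were highest in mural-like cells. Among the other members of wide spread, Ndufa1 in sham ranged from 47.6 CPM in B cell-like to 414 in mesothelial-like cells, a ratio of 8.71 with 2 UMIs in the lower class. Atp5sl and Atp5s in sham, and Cox7a1, Ndufaf7 and Ndufaf2 in MI, likewise rested on 1 to 3 UMIs in the highest or the lowest class.

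Mural-like cells had 386 CPM of Ndufa4l2 in sham (276 to 526; 40 UMIs) and 111 CPM in MI (70.6 to 167; 23 UMIs), and the 2 intervals did not overlap. Cox4i2 had 376 CPM in sham (268 to 514; 39 UMIs) and 72.6 in MI (40.6 to 120; 15 UMIs). Ndufa4l2 made up 75.5% of the UMIs of Ndufa4 and Ndufa4l2 together in sham mural-like cells (exact 95% interval 61.7 to 86.2) and 28.4% in MI (18.9 to 39.5). Cox4i2 made up 34.8% of the UMIs of Cox4i1 and Cox4i2 in sham (26.1 to 44.4) and 6.05% in MI (3.42 to 9.78). These rest on 77 sham and 41 MI cells, with median depths of 1047 and 4378 UMIs. Neither the part of depth nor which mural cells each library held was tested.

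Ndufa4l2 was also found in fibroblast-like cells, with 52.6 CPM in sham (44.7 to 61.4) and 16.6 in MI (14.8 to 18.6), a log2 ratio of -1.66 (-1.94 to -1.37). Its share of the pair there was 17% in sham and 2.93% in MI, while Ndufa4 itself had 256 CPM in sham and 552 in MI (1.11, 1.00 to 1.22). In fibroblast-like cells the members of this pair thus differed in opposite directions. After each cell was thinned to 500 UMIs, 3.29% of sham (2.52 to 4.23) and 0.790% of MI fibroblast-like cells (0.501 to 1.18) had a Ndufa4l2 UMI; unthinned, 7.98% and 8.21% did, at median depths of 1495 and 5223.5. The thinned share in sham macrophage/monocyte-like cells, which served as background at a median of 1363 UMIs, was 0.140%. In sham, mural markers were about as frequent with and without it: 25 of the 143 sham fibroblast-like cells with Ndufa4l2 had a mural marker UMI (17.5%), and 16.6% of those without did. In MI fibroblast-like cells, 51.5% (44.9 to 58.0) of the 239 cells with Ndufa4l2 had one and 43.1% (41.2 to 45) of those without did, with intervals that barely met, at median depths of 6922 and 5107 UMIs.

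In endothelial-like cells Ndufa4l2 had 15.6 CPM in sham and 2.34 in MI, from 62 and 4 UMIs (-2.73, -4.65 to -1.30), and Cox4i2 had 14.6 CPM in sham from 58 UMIs and 0 UMIs in MI. With these 0 UMIs set to a floor of 3 counts over the class, Cox4i2 came out 8.28-fold lower in MI, or -3.05 on the log2 scale. This value is a bound set by the floor, so no counting interval is given for it. Mural transcripts moved with both genes here. Of the 42 sham endothelial-like cells with a Cox4i2 UMI, 35 had a mural marker UMI (83.3%), against 33.6% of those without, and of the 45 with Ndufa4l2, 34 had one (75.6%), against 33.7%. Cells with a Cox4i2 UMI were also deeper, with a median of 3083.5 against 1297.5 UMIs. So were those with Ndufa4l2, at 1997 against 1297 UMIs, and the part of depth was not tested. With a stricter gate (226 MI and 1704 sham cells) the Ndufa4l2 ratio was -1.14 and the floored value for Cox4i2 -0.96, against -2.73 and -3.05 over all. The partner Ndufa4, at 0.38 over all endothelial-like cells, was at -0.60, so its direction depended on the gate.

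**Figure D5:**
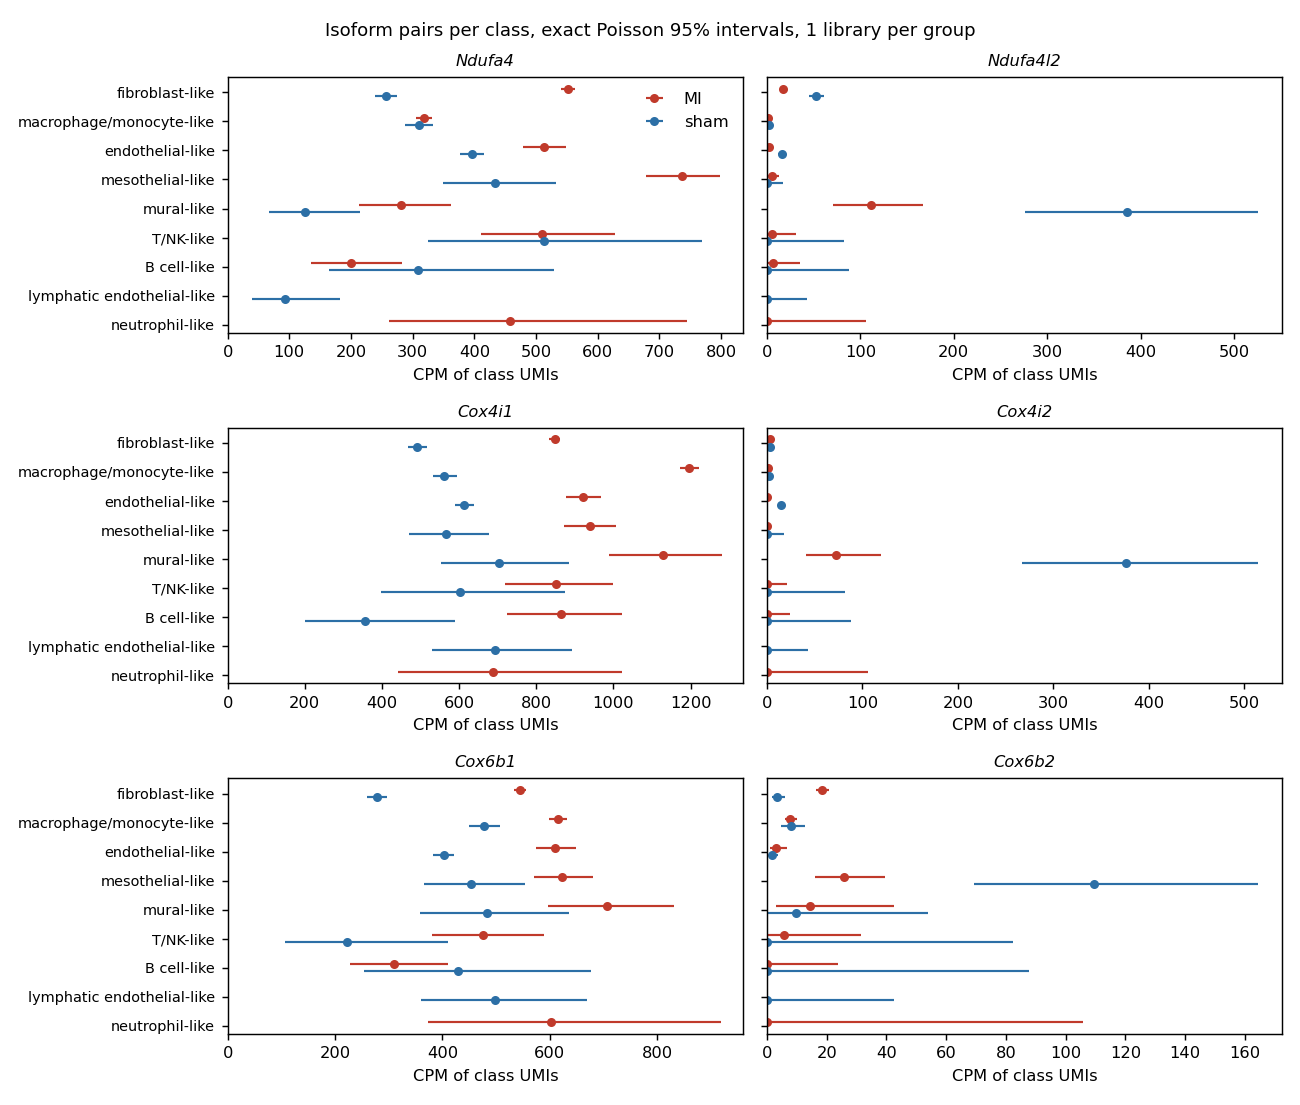
Levels of the isoform genes by class in CPM with exact Poisson 95% intervals (red MI, blue sham, 1 library each). Ndufa4l2 and Cox4i2 peak in mural-like cells, at 386 and 376 CPM in sham and 111 and 72.6 CPM in MI, and Cox6b2 is highest in sham mesothelial-like cells at 110 CPM.

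Cox6b2 had 110 CPM in sham mesothelial-like cells (69.4 to 164; 23 UMIs) and 25.9 in MI (16.0 to 39.6; 21 UMIs), a log2 ratio of -2.08 (-3.01 to -1.16). In fibroblast-like cells it had 3.31 CPM in sham (10 UMIs) and 18.5 in MI (329 UMIs). Its share of the UMIs of Cox6b1 and Cox6b2 was 19.5% in sham and 3.99% in MI mesothelial-like cells, and 1.18% and 3.28% in fibroblast-like cells. In macrophage/monocyte-like cells it had 8.11 and 7.87 CPM in sham and MI, a difference within counting error (-0.04, -0.82 to 0.80) that was above 0 in cells of 1000 to 2000 UMIs (0.50).

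The muscle isoforms Cox6a2, Cox7a1 and Cox8b, which replace their common partners in heart and skeletal muscle, were sparse in all classes. In sham macrophage/monocyte-like cells, 19 of 32 Cox7a1 and 9 of 12 Cox8b UMIs were in cells with a cardiomyocyte marker UMI. In MI cells of that class, 5 of 47 Cox7a1 UMIs were, and the 1 Cox8b UMI was not. Cox6a2 had 10.8 CPM in sham and 3.67 in MI there, from 24 and 28 UMIs (-1.56, -2.40 to -0.71). Of the 24 sham UMIs, 20 were in the 219 of 1429 cells (15.3%) that had a cardiomyocyte marker UMI, and of the 28 MI UMIs, 1 was in such a cell (105 of 3840 cells, 2.73%). The 14 cardiomyocyte markers summed to 240 CPM in sham and 15.0 in MI in that class, with all 14 seen in sham and 13 in MI (Actn2 at 0). Without the cells that held such a UMI, Cox6a2 was at 0.74, from 27 MI and 4 sham UMIs. Cox7a1 went from -1.23 to -0.32, with 42 MI and 13 sham UMIs left. No interval was computed for this subset, so whether the sign change of Cox6a2 exceeds counting error is not known. In fibroblast-like cells Cox7a1 had 5.96 CPM in sham and 2.02 in MI (-1.56, -2.41 to -0.65), and Cox8b differed by -2.88 from 15 and 12 UMIs. Cardiomyocyte markers there summed to 64.5 and 42.8 CPM, with Nppa at 0 in sham and Ckm and Actn2 at 0 in MI, and 2 of the 18 sham UMIs of Cox7a1 were in cells with such a marker.

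Genes of neighbouring mitochondrial pathways were read from listed sets and are given by medians beside the median of all genes, -0.22, -0.12, -0.07 and 0.02 in fibroblast-like, macrophage/monocyte-like, endothelial-like and mesothelial-like cells. The list of carriers and uncoupling genes had medians of 0.71, 0.48, 0.82 and 0.74. Of its 8 tested genes 3 were at least 2-fold higher in MI in fibroblast-like cells, beside 13.2% of all genes. These 3 were the ADP/ATP carriers Slc25a5 (540 and 155 CPM, 1.80) and Slc25a4 (1012 and 488 CPM, 1.05), and the ATP synthase inhibitor Atpif1 (597 and 184 CPM, 1.70). Ucp2, an uncoupling-family carrier, went the other way in endothelial-like cells, with 7.62 and 38.9 CPM (-2.35). The mitochondrial ribosome, which translates the mt- mRNAs, had medians of 0.35, 0.31, 0.43 and 0.54 over 75, 75, 75 and 67 tested genes, with 64, 58, 62 and 53 above 0. Its nuclear genes were thus mostly on the side of the nuclear members.

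The succinate dehydrogenase and cytochrome c genes had medians of 0.25, 0.26, 0.28 and 0.04, with Sdhd at 0.72, 0.70, 0.71 and 1.37 and Cycs at 0.17, -0.06, 0.02 and 0.44. The citric acid cycle had 0.08, 0.13, 0.33 and 0.03, and fatty acid oxidation -0.06, -0.08, 0.23 and -0.27. Assembly genes outside the symbol rule had 0.10, -0.03, 0.05 and -0.04. Regulators of mitochondrial biogenesis had -0.38, -0.27, -0.05 and 0.17. Nrf1, whose motif was searched in the promoters, had 10.6 CPM in MI and 21.8 in sham in fibroblast-like cells (-1.04) and ratios of -0.65, -0.93 and -1.82 in macrophage/monocyte-like, endothelial-like and mesothelial-like cells. Tfam, which packages mitochondrial DNA and takes part in its transcription, had ratios of -0.06, -0.28, 0.02 and 0.17. Ppargc1a was too sparse to compare, with 7 MI and 4 sham UMIs in fibroblast-like cells.

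Glycolysis genes had medians of 0.97, 0.45, 0.05 and 0.26. In fibroblast-like cells 6 of 14 were at least 2-fold higher in MI and 1 at least 2-fold lower, beside 13.2% and 20.5% of all genes. Slc2a1, the glucose transporter, was at 3.14 from 208 and 4 UMIs, Eno1 at 1.52 and Ldha at 1.29. Gapdh differed by -0.44 there and by -1.02 in macrophage/monocyte-like cells. The list of hypoxia targets on mitochondria, which holds Ndufa4l2 and Cox4i2 themselves, had medians of -0.37, 0.44, -0.41 and -0.07 and no common direction: Pdk1 was at 1.40, 0.77 and 1.17 in fibroblast-like, macrophage/monocyte-like and endothelial-like cells, and Bnip3 at 0.65, 0.84 and -0.79.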

How the data were processed

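The authors deposited 1 table of UMI counts (genes by cells) per library, not normalized. The submitters' processing notes name the build mm10 and the tool Seurat without version or role; for the aligner and annotation, the labels and files give none. The labels describe fixation and embedding of the hearts and 12 PCR cycles. All barcodes had at least 500 detected genes. The 21745 genes of both tables were used; Cox7b2 was listed in MI only and was not compared. Members, gene lists and markers were chosen with earlier results of these data known.

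Scrublet (scanpy 1.11.5) called doublets (142 MI, 1.66%, and 341 sham, 5.38%) and removed. A cell took the class with the largest share of its markers detected, given at least 2 distinct markers and 1.5 times the share of the next class; this scoring was set after the markers were listed. The stricter gate asked for 3 markers and 3 times. UMIs were summed per class and library and divided by the class total (CPM). Levels have exact Poisson, shares exact Clopper-Pearson, and log2 ratios exact conditional binomial 95% intervals. Genes with at least 20 UMIs over both libraries entered counts and medians; called means 2-fold. A class with 0 UMIs was set to 3. Cells were thinned to 500 UMIs (seed 1), which left out none. With 1 library per group no test was possible. The ratio step was tested on simulated data.

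Genes were named by a rule: all mt- members, the isoform pairs, the 6 highest and 6 lowest nuclear members per class by the interval bound nearest to no difference among those with at least 50 UMIs, and the 6 of largest spread across classes. Other members and list genes named for contrast were chosen after their values were seen. Positions are those of GENCODE on GRCm38; promoters are from RefSeq, and protein sequences were not used here. Python 3.11.15, numpy 2.4.6, scipy 1.17.1, pandas 2.3.3, anndata 0.12.19, scikit-learn 1.9.0 and matplotlib 3.10.9 were used. Alternatives changed the gate, doublets, mt- limit, denominator, scaling, weighting, UMI minimum, barcodes ending in N and thinning; 3 were chosen after seeing the data (cells of 1000 to 2000 UMIs, CPM without mt- and ribosomal protein genes, and macrophage/monocyte-like cells without a cardiomyocyte marker UMI).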

Additional observations from a re-analysis of the deposited data

Results flagged for a closer look

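Cox6b2, the testis-enriched isoform of complex IV subunit 6b, differed in opposite directions in 2 classes under the same contrast: its log2 ratio of MI over sham was 2.48 (1.59 to 3.56) in fibroblast-like cells, from 329 and 10 UMIs, and -2.08 (-3.01 to -1.16) in mesothelial-like cells, from 21 and 23 UMIs. With 1 library per group the difference between the classes was not tested. Median depth was 5223.5 and 1495 UMIs in MI and sham fibroblast-like cells and 5243 and 1979 in mesothelial-like cells, and its part in the result was not tested.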

How the results depend on the processing

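In the 4 compared classes the nuclear sum stayed above 0 and the mt- sum below 0 under each alternative that could be run. Values that left their counting interval were as follows. In fibroblast-like cells the nuclear and mt- log2 ratios were 0.51 and -0.75 with the stricter gate, 0.26 and -0.28 in cells of 1000 to 2000 UMIs, 0.57 and -0.73 without mt- and ribosomal protein genes in the denominator, 0.76 and -0.53 with median-of-ratios scaling, and 0.49 and -0.73 with cells weighted equally. In macrophage/monocyte-like cells the nuclear ratio was 0.46 without mt- genes in the denominator, 0.49 without mt- and ribosomal protein genes and 0.54 with median-of-ratios scaling; the mt- ratio was -0.92 in cells of 1000 to 2000 UMIs, -0.87 without cells holding a cardiomyocyte marker UMI, -0.82 without mt- and ribosomal protein genes, -0.77 with median-of-ratios scaling and -0.91 with equal weights. In endothelial-like cells the nuclear and mt- ratios were 0.38 and -0.66 with the stricter gate, 0.51 and -0.59 without mt- and ribosomal protein genes, 0.53 and -0.57 with median-of-ratios scaling and 0.45 and -0.71 with equal weights; the nuclear ratio was 0.41 in cells of 1000 to 2000 UMIs, and the mt- ratio -0.68 without the mt- limit and -0.69 without barcodes ending in N. The mesothelial-like mt- ratio was -0.84 with equal weights. With a minimum of 100 UMIs, the count of nuclear members at least 2-fold lower was 1, 0, 0 and 1 in fibroblast-like, macrophage/monocyte-like, endothelial-like and mesothelial-like cells, since sparse isoforms dropped out; with 1 UMI in each library it was 5 in macrophage/monocyte-like cells. With median-of-ratios scaling, 17 members were at least 2-fold higher in fibroblast-like cells, and 6 in macrophage/monocyte-like ones. Cox4i2 in sham mural-like cells was at 536 CPM with the stricter gate. Cox6a2 in macrophage/monocyte-like cells was reversed, at 0.74, without cells holding a cardiomyocyte marker UMI. That value rests on 27 MI and 4 sham UMIs and has no computed interval. The cause of the other shifts was not tested. Of 742 values of 130 gene and class pairs, 642 stayed within their counting interval, 99 left it and 1 was reversed. Only genes at least 2-fold different in the main setting could be called reversed. Smaller ratios that changed sign are in the other 2 counts. Among them were Ndufa4 in endothelial-like cells, at 0.38 and at -0.60 with the stricter gate. In fibroblast-like cells mt-Co2 and mt-Co3 went from -0.38 and -0.41 to 0.10 and 0.16 in the 1000 to 2000 UMI window. The stricter gate and the 1000 to 2000 UMI window left too few mesothelial-like cells, and the stricter gate too few MI mural-like cells, to give values.

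No paired analysis was possible because each group was 1 library, and there was no replicate to leave out. The comparison is of 1 infarcted heart with a pool of 4 sham hearts, and heart, library and surgery cannot be told apart. Classes rest on marker genes, and depth limits sparse members: those under 20 UMIs entered no count, and the muscle isoforms that passed have wide intervals.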
